A study of Mus musculus with 20 samples.

Results

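Whether the heart's response to a high-fat diet depends on the enzyme ACC2 was asked of all 20 libraries of the study, which fall into 4 groups of 5 mice by genotype and diet. Poly(A) RNA of frozen left ventricle was sequenced. All mice carried floxed alleles of the ACC2 gene (ACC2f/f). The mice called iKO also carried MCM, a tamoxifen-inducible Cre recombinase (MerCreMer) that deletes the floxed gene, and the mice called WT in the sample labels were ACC2f/f without it. Both genotypes received tamoxifen (20 mg/kg, 5 days) when 8 weeks old. Beginning 4 weeks later they ate chow or the high-fat diet (HFD) D12492 for 16 weeks. The labels do not name the promoter that drives MCM, and no mice had MCM alone, so what MCM does by itself and what ACC2 loss does cannot be told apart.

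ACC2, encoded by Acacb, sits on the outer mitochondrial membrane and makes malonyl-CoA. Malonyl-CoA inhibits carnitine palmitoyltransferase 1 (CPT1), the step at which long-chain fatty acids are committed to enter mitochondria for oxidation. Fatty acids that reach the heart also act as ligands of the nuclear receptor PPAR-alpha, which raises the transcription of genes for fatty acid uptake and oxidation, and a fat-rich diet is a known stimulus of these genes.

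The measure throughout is the interaction, the HFD-minus-chow difference in iKO less that in WT, on the log2(FPKM + 1) scale. FPKM, the deposited unit, are reads scaled to transcript length and library size. A positive interaction means that HFD moved a gene further upward, or less far downward, in iKO than in WT. It equals the genotype difference on HFD less that on chow. The files list 25052 genes, of which limma tested the 12775 that reached 0.5 FPKM in 5 or more libraries. A gene is called where its Benjamini-Hochberg adjusted p, taken over every gene in the fit, was below 0.05, and the verbs rose and fell are kept for called differences.

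Libraries RT1 to RT10 were all from chow and RT11 to RT20 all from HFD, so that the diet and anything else that separates these runs of numbers cannot be told apart; an offset shared by both genotypes cancels in the interaction. The reads assigned to genes were estimated at 12.6 to 31.9 Mreads (megareads) per library. Acacb checked the genotype labels: it lay between 34.9 and 41.92 FPKM in the 10 WT libraries and between 8.37 and 11.92 in the 10 iKO libraries. Cardiomyocyte markers were high in every library, with summed levels from 35235.74 to 48769.15 FPKM. Atrial transcripts stood apart in WT chow library RT1 (Myl7 145.15 FPKM) and iKO chow library RT4 (30.81), against at most 2.88 FPKM in the others.

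Limma called 4 genes for the interaction, all positive, which is 0.0313% of the genes tested. At an unadjusted p below 0.05 the interaction was positive for 287 genes (2.25%) and negative for 193 (1.51%), 480 in all. The fifth-smallest adjusted p was 0.174. The 4 called genes were Fbp2, Scd4, Vwa8 and Scn4b. In each of them iKO lay well below WT on chow, and the gap was smaller on HFD.

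Fbp2 (ENSMUSG00000021456.7, chromosome 13, 62836877 to 62858422 on GRCm38) encodes the muscle fructose-1,6-bisphosphatase, which reverses a committed step of glycolysis. On chow its levels were 18.47, 18.08, 17.36, 17.86 and 16.75 FPKM in the WT mice and 8.67, 8.08, 10.42, 9.46 and 8.99 FPKM in the iKO mice. On HFD they were 29.24, 22.68, 27.82, 26.95 and 28.05 FPKM in WT and 20.53, 20.79, 20.39, 20.86 and 22.54 FPKM in iKO. No 2 of the 4 groups overlapped, and the iKO mice on HFD lay above the WT mice on chow. Fbp2 rose with HFD by 0.58 in WT and by 1.12 in iKO, and the interaction was 0.55 (SE 0.09, 95% interval 0.36 to 0.74, adjusted p = 0.0345). The iKO level was 0.89 lower than WT on chow and 0.34 lower on HFD.

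Scd4 (ENSMUSG00000050195.8, chromosome 19, 44333092 to 44346743) encodes a stearoyl-CoA desaturase of the heart, an enzyme that makes monounsaturated fatty acids. On chow it stood at 4.9, 4.62, 4.26, 3.87 and 2.75 FPKM in WT and at 1.09, 1.13, 1.17, 0.72 and 1.45 FPKM in iKO. On HFD it stood at 2.47, 2.6, 2.4, 2.66 and 2.34 FPKM in WT and at 2.76, 1.63, 1.86, 1.43 and 1.95 FPKM in iKO. The genotypes did not overlap on chow and did overlap on HFD. Scd4 was the one gene called in opposite directions in the 2 genotypes: it fell by 0.52 in WT (adjusted p = 0.00907) and rose by 0.46 in iKO (adjusted p = 0.0144), with an interaction of 0.99 (SE 0.17, adjusted p = 0.0345). Its relatives Scd1 (interaction -0.07, 95% interval -0.58 to 0.44) and Scd2 (-0.03, 95% interval -0.37 to 0.32) were not called, and reads shared between these similar transcripts could be split among them by the counting. Under median-of-ratios scaling the WT change of Scd4 did not pass the test (adjusted p = 0.0533).

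Scn4b (ENSMUSG00000046480.5, chromosome 9, 45138395 to 45154152) encodes a beta subunit of voltage-gated sodium channels, which carry the upstroke of the cardiac action potential. Its chow levels were 14.89, 20.57, 16.81, 17.52 and 19.67 FPKM in WT and 9.74, 7.73, 7.4, 5.74 and 7.77 FPKM in iKO. Its HFD levels were 27.51, 22.72, 23.1, 26.76 and 27.52 FPKM in WT and 17.97, 21.98, 18.34, 24.5 and 22.22 FPKM in iKO. The genotypes were apart on chow and overlapped on HFD. Scn4b rose 1.41-fold in WT and 2.55-fold in iKO, as a ratio of (FPKM + 1), and the interaction was 0.86 (SE 0.15, adjusted p = 0.0466). Of the 6 sodium channel subunits tested the skeletal-type alpha subunit Scn4a had the next-largest value, 0.45 (unadjusted p = 0.00541, adjusted p = 0.930).

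Vwa8 (ENSMUSG00000058997.7, chromosome 14, 78849052 to 79202310) encodes a mitochondrial ATPase. It stood at 40.61, 42.15, 42.06, 43.64 and 44.82 FPKM in WT on chow and at 27.63, 29.98, 27.84, 29.87 and 29.67 FPKM in iKO on chow. On HFD the WT levels of 56.72, 48.42, 54.37, 52.68 and 44.98 FPKM overlapped the iKO levels of 45.33, 49.21, 46.88, 45.3 and 50.25. Vwa8 rose by 0.26 in WT and by 0.69 in iKO, with an interaction of 0.43 (SE 0.08, adjusted p = 0.0466). The sizes of the 4 interactions held in all 32 alternative fits (Fbp2 0.49 to 0.60, Scd4 0.89 to 1.4, Scn4b 0.75 to 0.94, Vwa8 0.38 to 0.47), but their calls did not: Fbp2 stayed called in 13 of 32, Scd4 in 11, Vwa8 in 8 and Scn4b in 7, and none of them under median-of-ratios or upper-quartile scaling. No gene was called without RT1, RT3, RT4, RT5, RT8, RT13, RT15, RT16, RT18, RT19 or RT20, each left out alone.

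**Figure D1:**
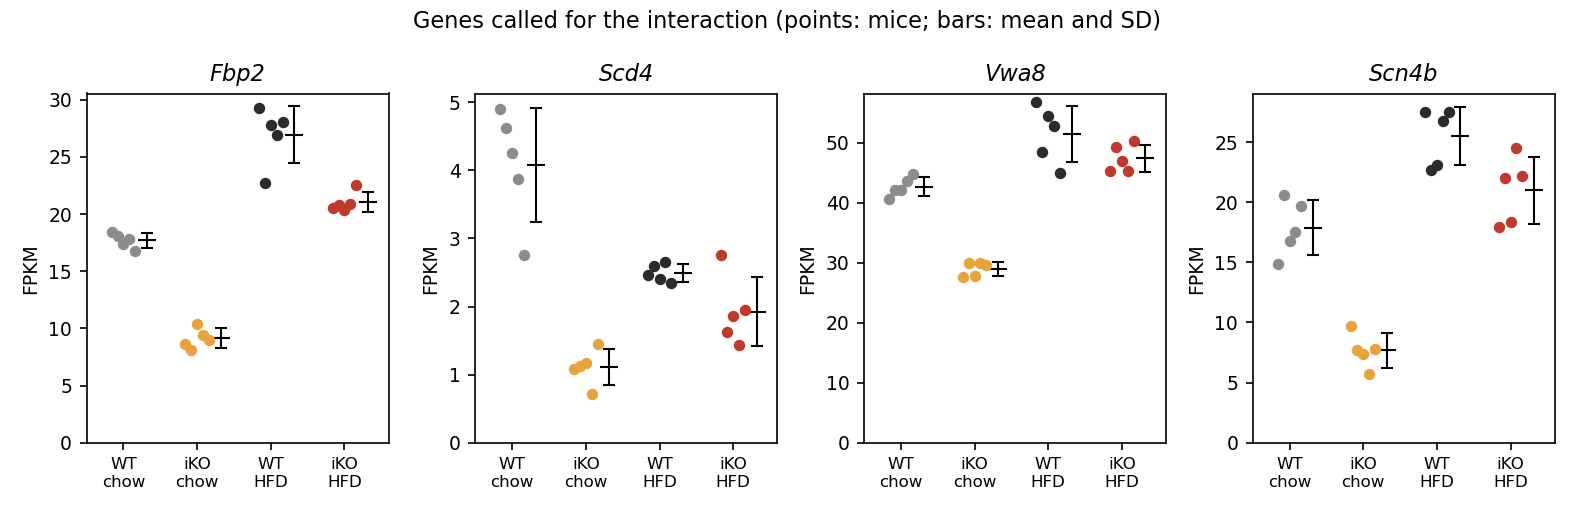
Levels in FPKM (vertical axes, from 0) of the 4 genes called for the interaction, 1 point per mouse, with the group mean and SD beside the points. For each gene the iKO mice on chow are the lowest group, and for Scd4, Vwa8 and Scn4b the genotypes overlap on HFD.

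The response to diet itself was broad in both genotypes. In WT 98 genes rose (0.767% of genes tested) and 929 fell (7.27%). In iKO 211 rose (1.65%) and 1068 fell (8.36%). Of the genes that rose, 74 were called in both genotypes, 75.5% of the WT list and 35.1% of the iKO list, and of those that fell 461 were called in both, 49.6% and 43.2%. The excess of falling genes depends on the scaling: median-of-ratios scaling gave 178 genes higher against 149 lower in WT, and 328 against 232 in iKO. The median over all genes was -0.08 in WT, -0.07 in iKO and 0.01 for the interaction, and median-of-ratios scaling brought all 3 to 0.00. The genotype difference was called for 44 higher (0.344%) and 92 lower genes (0.72%) on chow and for 13 higher (0.102%) and 9 lower (0.0705%) on HFD.

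**Figure D2:**
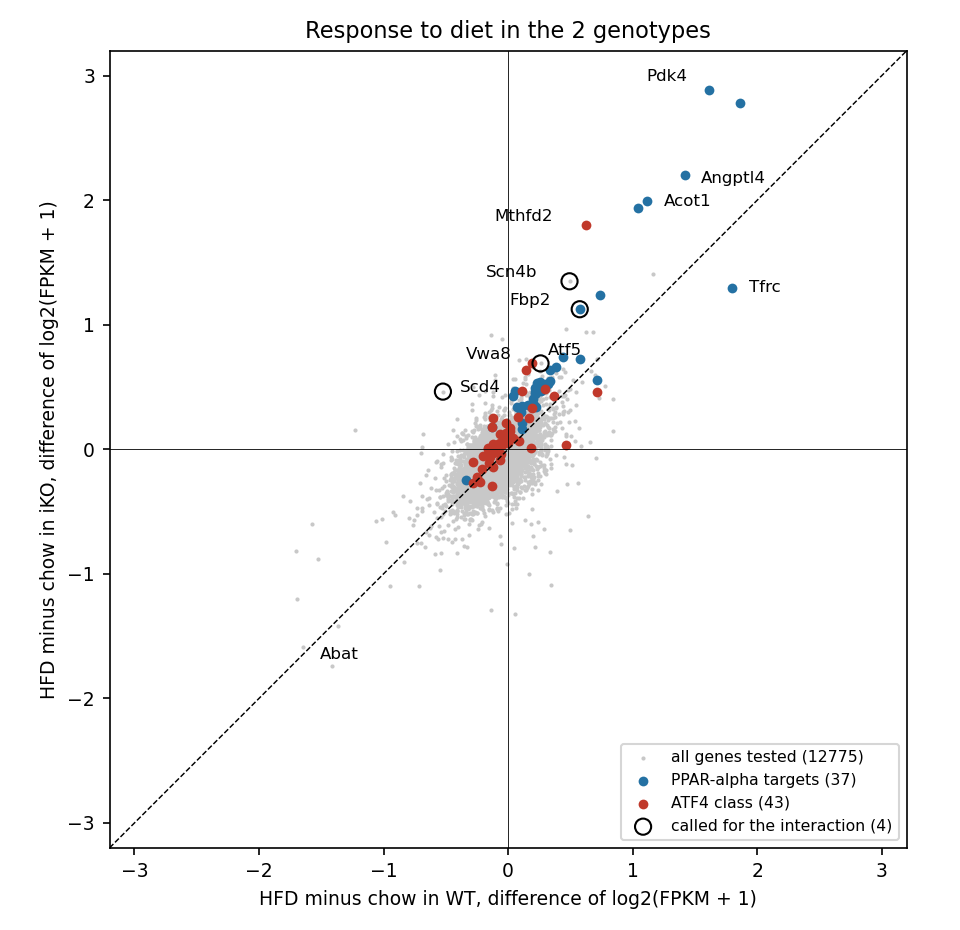
Difference between HFD and chow in WT (horizontal) and in iKO (vertical) for each gene tested, both on the log2(FPKM + 1) scale, with equal responses on the dashed line. Most of the 37 PPAR-alpha targets (blue) lie above the line in the upper right, Mthfd2, Atf5 and a few other genes of the ATF4 class (red) lie above it, and the 4 called genes are circled.

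PPAR-alpha targets had the largest share of positive interactions of the 44 gene classes compared. Of 37 tested members 35 had an interaction above 0 (94.6%, against 55.4% of all genes). At an unadjusted p below 0.05, 26 were positive (70.3%, against 2.25% of all genes) and none negative. Fbp2 alone was called. The median interaction was 0.23 against 0.01 for all genes. With HFD 25 members rose and 1 fell in WT (median 0.23), while 33 rose and 1 fell in iKO (median 0.49). Of all genes 0.767% rose and 7.27% fell in WT, and 1.65% rose and 8.36% fell in iKO. On chow 26 were called lower in iKO (median -0.32), and on HFD 3 were (median -0.11). The shares of all genes called lower in iKO were 0.72% on chow and 0.0705% on HFD. The per-library score, the mean of the members' log2 values after centring each gene, ran from -0.578 to -0.378 in iKO on chow and from -0.179 to 0.041 in WT on chow. On HFD it ran from 0.206 to 0.445 in WT and from 0.179 to 0.368 in iKO. The genotypes were thus apart on chow and overlapped on HFD. The count of 26 lay between 21 and 28 over the 32 alternative fits.

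Within this class the thioesterase genes Acot1 and Acot2 rose in both genotypes. Acot1, a cytosolic acyl-CoA thioesterase, stood at 6.77, 8.52, 7.57, 5.88 and 7.52 FPKM in WT and 3.07, 3.66, 2.04, 2.45 and 3.99 FPKM in iKO on chow. The HFD-fed mice had 16.69, 14.85, 16.01, 18.96 and 17.74 FPKM in WT and 16.16, 11.82, 12.87, 16.42 and 17.47 FPKM in iKO. Its interaction of 0.87 (SE 0.18) had an adjusted p of 0.174, the smallest beyond the called genes, where it was joined by Decr1. Acot2, its mitochondrial relative, had an interaction of 0.50 (adjusted p = 0.234) and the peroxisomal-type Acot3 one of 0.31 (adjusted p = 0.999); the 3 are neighbours with similar sequences, so reads could be split among them. Of the 11 thioesterases tested these 3 were positive (27.3%, against 2.25% of all genes) and none negative at an unadjusted p below 0.05. The class median was 0.01.

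Several classic targets responded strongly but varied widely between mice. Pdk4, the kinase that switches off pyruvate dehydrogenase, stood at 97.75, 147.82, 131.01, 74.06 and 49.02 FPKM in WT on chow and at 53.69, 36.13, 26.45, 38.42 and 80.21 FPKM in the chow-fed iKO mice. On HFD it reached 314.16, 308.0, 138.37, 449.97 and 319.18 FPKM in WT and 394.48, 234.87, 268.56, 311.27 and 501.09 FPKM in iKO. The genotypes overlapped on both diets, and the interaction of 1.27 had a wide 95% interval, 0.19 to 2.35 (adjusted p = 0.999). Ucp3, a mitochondrial uncoupling-family protein, rose by 1.04 in WT and 1.93 in iKO (interaction 0.89, 95% interval 0.05 to 1.73), and Angptl4, a secreted inhibitor of lipoprotein lipase, by 1.42 and 2.20 (0.79, 95% interval -0.11 to 1.68). At this spread neither was called. Members with an interaction below 0 were Tfrc, the transferrin receptor, which rose by 1.80 in WT and 1.29 in iKO (-0.51, 95% interval -1.09 to 0.08), and the uncoupling-family gene Ucp2 (-0.16). Lipoprotein lipase itself, Lpl, fell in both genotypes, by 0.34 in WT and 0.25 in iKO. Neither fall was called under median-of-ratios scaling, where no PPAR-alpha target was called lower with HFD in either genotype.

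Mitochondrial fatty acid oxidation moved in the same way, and 15 of its 25 tested members are also among the PPAR-alpha targets. At an unadjusted p below 0.05, 16 members (64%, against 2.25% of all genes) had a positive and none a negative interaction. None was called. The median interaction was 0.19. With HFD 11 rose and 1 fell in WT (median 0.12), and 19 rose and 2 fell in iKO (median 0.34). Of all genes 0.767% rose and 7.27% fell in WT, and 1.65% rose and 8.36% fell in iKO. Under median-of-ratios scaling no oxidation gene fell in either genotype. On chow 16 were called lower in iKO (median -0.24), and on HFD 2 were (median -0.11), against 0.72% and 0.0705% of all genes. The class score lay between -0.264 and -0.156 in iKO on chow, between -0.024 and 0.086 in WT on chow, between -0.022 and 0.126 in iKO on HFD and between 0.045 and 0.192 in WT on HFD. The iKO mice on HFD thus overlapped the WT mice on either diet.

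At the point of entry into mitochondria all 5 carnitine genes had positive interactions at an unadjusted p below 0.05. Cpt1b, the muscle form of CPT1 and the target of malonyl-CoA, stood on chow at 160.28, 174.59, 173.41, 163.15 and 167.0 FPKM in WT and 140.28, 141.99, 131.94, 148.27 and 129.72 FPKM in iKO. On HFD it stood at 180.4, 165.11, 178.67, 182.8 and 176.07 FPKM in WT and 181.16, 168.42, 174.46, 165.28 and 187.6 FPKM in iKO. Cpt1b rose in iKO, by 0.34 (adjusted p = 4.17e-05), and its change in WT of 0.07 was not called (adjusted p = 0.305). The interaction was 0.27 (95% interval 0.13 to 0.40, adjusted p = 0.278). Cpt1a, the liver-type CPT1, had an interaction of 0.41, Cpt2, the inner-membrane transferase, 0.29, Slc25a20, the carnitine-acylcarnitine carrier between them, 0.28, and Crat, carnitine acetyltransferase, 0.23.

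Further along the pathway the values were uneven. Among acyl-CoA dehydrogenases, which take the first oxidative step, the very-long-chain Acadvl (0.20), long-chain Acadl (0.15) and Acad11 (0.24) were positive at an unadjusted p below 0.05. The medium-chain Acadm (0.05, 95% interval -0.06 to 0.16) and short-chain Acads (0.11, 95% interval -0.06 to 0.29) were not. The trifunctional protein genes Hadha (0.28, adjusted p = 0.203) and Hadhb (0.19) and the thiolase Acaa2 (0.30, adjusted p = 0.203; called without RT7, adjusted p = 0.0465) were positive, while the short-chain hydratase Echs1 stood at -0.08. Decr1, the dienoyl-CoA reductase needed for polyunsaturated chains, stood at 161 FPKM ± 2.63 (SD, n = 5) in WT and 111 ± 4.99 in iKO on chow and at 219 ± 13.1 and 186 ± 9.11 on HFD. Its genotypes did not overlap on either diet, and its interaction was 0.30 (SE 0.06, adjusted p = 0.174). Of the electron carriers that take up the released electrons, Etfdh had an interaction of 0.23, and Etfa (-0.03) and Etfb (0.01) had values near 0; that of Etfb changed sign under both alternative scalings.

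**Figure D3:**
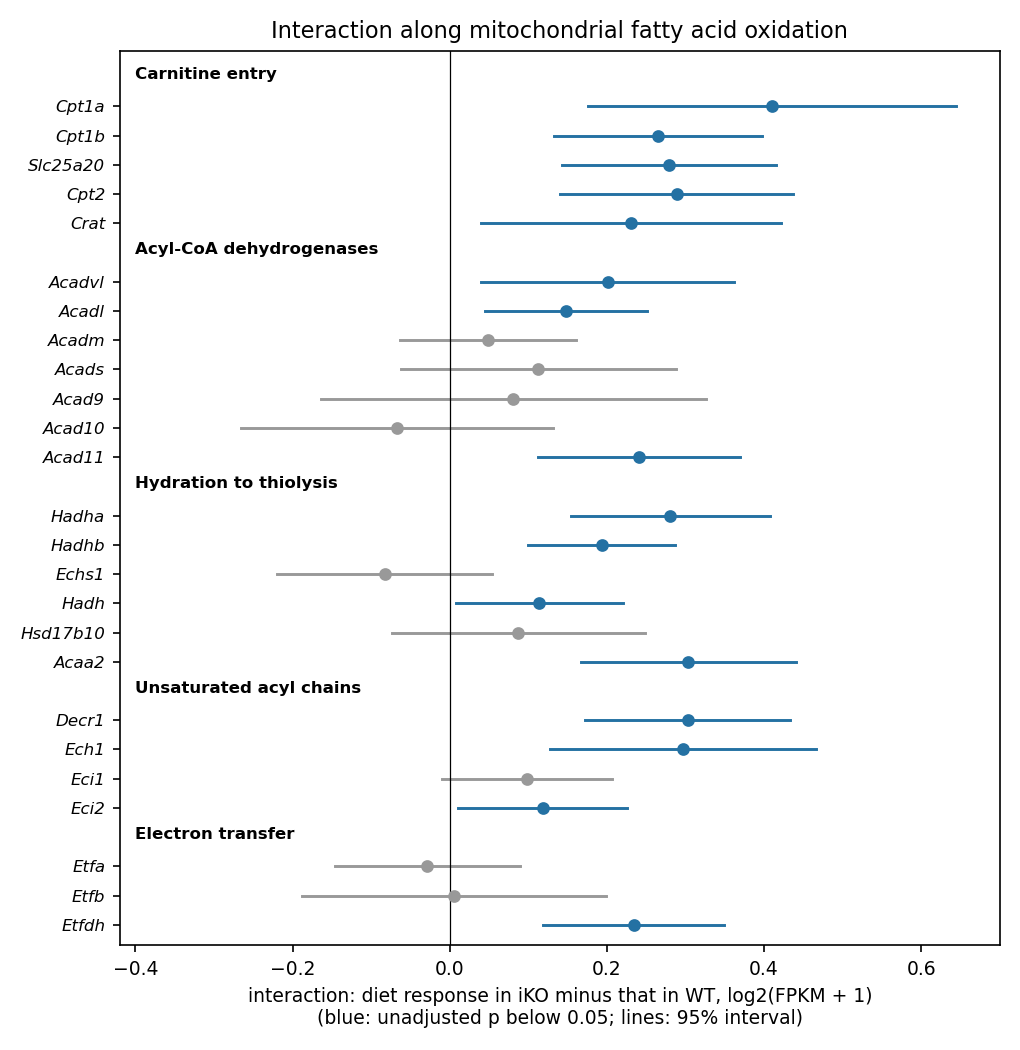
Interaction on the log2(FPKM + 1) scale (horizontal) with its 95% interval for each of the 25 tested genes of mitochondrial fatty acid oxidation, grouped by step; blue marks an unadjusted p below 0.05. All 5 carnitine genes lie to the right of 0, and genes close to 0 or below it include Acadm, Acad10, Echs1, Etfa and Etfb.

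Supply of fatty acids to these enzymes was described by 35 tested genes of uptake, activation and storage. Of these, 8 (22.9%, against 2.25% of all genes) had a positive and none a negative interaction at an unadjusted p below 0.05. The median interaction was 0.09. With HFD 7 rose and 1 fell in WT, and 15 rose and 1 fell in iKO. Of all genes 0.767% rose and 7.27% fell in WT, and 1.65% rose and 8.36% fell in iKO. Under median-of-ratios scaling none of the 35 fell in either genotype. Fabp3, the heart's fatty acid-binding protein, stood on chow at 3435 FPKM ± 55.8 (SD, n = 5) in WT and 2613 ± 75.8 in iKO and on HFD at 4225 ± 281 and 3753 ± 116. It rose by 0.30 in WT and 0.52 in iKO (interaction 0.23, adjusted p = 0.331). Cd36, the main fatty acid translocase, rose by 0.21 and 0.46 (interaction 0.25), whereas Acsl1, the acyl-CoA synthetase that activates fatty acids, rose in iKO (0.35) and was not called in WT (0.11), although under both alternative scalings it was called in WT as well (0.22 under median-of-ratios scaling).

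Gpam and Agpat3, acyltransferases of glycerolipid synthesis, had the largest interactions of the storage steps after Angptl4, at 0.53 and 0.32 (adjusted p = 0.387 and 0.399). Both rose in iKO, by 0.57 and 0.42, and were not called in WT, except Agpat3 under median-of-ratios scaling (0.20, adjusted p = 0.0461). Over the union of PPAR-alpha targets, oxidation, uptake and thioesterases, 82 genes were tested, and the median interaction was 0.15. At an unadjusted p below 0.05, 33 were positive and none negative, against 2.25% and 1.51% of all genes. Of the 20 genes with the smallest interaction p among those averaging 1 or more on the log2 scale, 19 were positive and 11 belonged to this union.

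**Figure D4:**
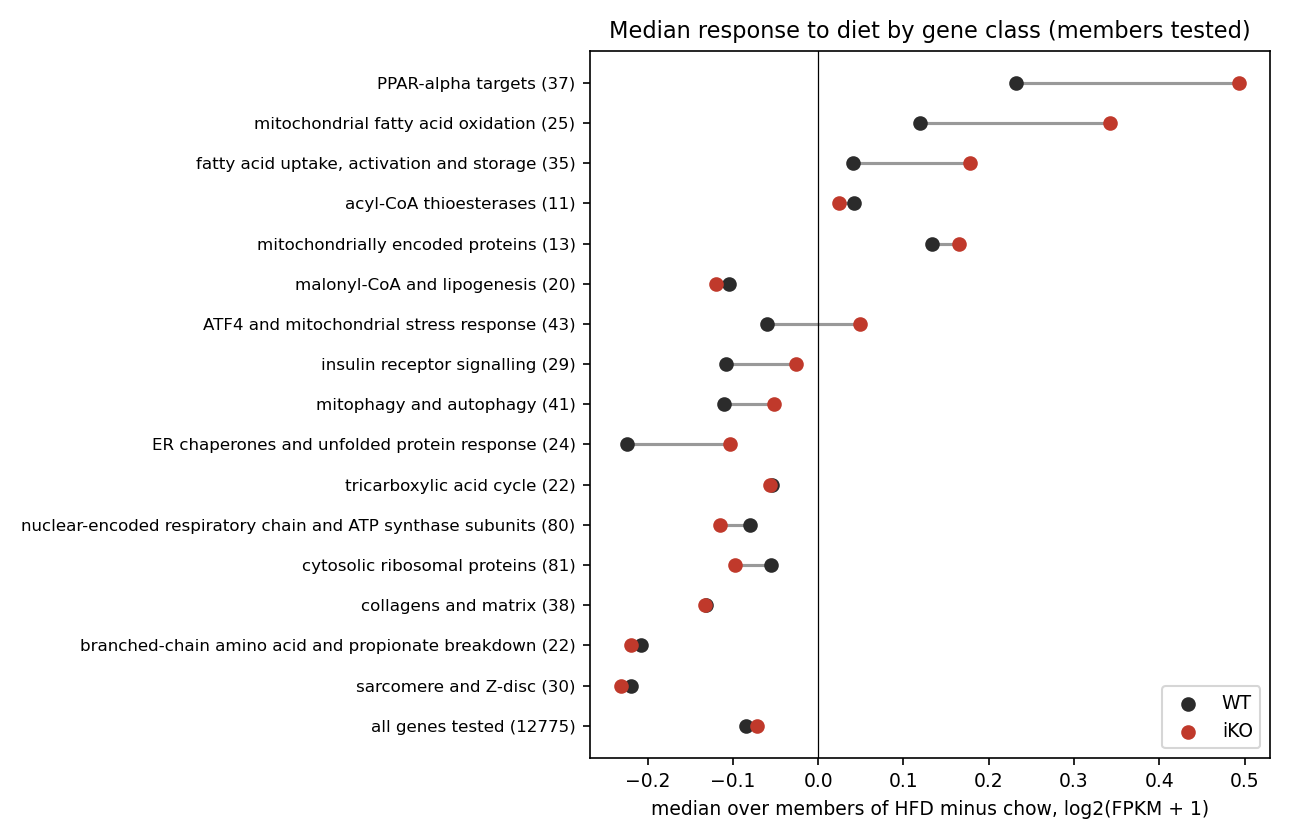
Median over the tested members of the HFD-minus-chow difference, on the log2(FPKM + 1) scale, in WT (black) and in iKO (red) for 16 gene classes and all genes tested. The distance between the 2 points is widest for PPAR-alpha targets and fatty acid oxidation, and the points nearly coincide for branched-chain amino acid breakdown, sarcomere genes and the tricarboxylic acid cycle.

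Among 20 genes of malonyl-CoA turnover and lipogenesis the median interaction was 0.02. At an unadjusted p below 0.05, 4 had positive interactions (20%, against 2.25% of all genes). Besides Scd4 they were Mlycd, Me1 and Acacb. Mlycd, malonyl-CoA decarboxylase, which degrades the product of ACC2, stood at 42.5 FPKM ± 4.15 (SD, n = 5) in WT and 31.2 ± 3.46 in iKO on chow and at 43.7 ± 4.70 and 42.4 ± 3.33 on HFD. It rose in iKO by 0.43 (adjusted p = 0.00173) and was not called in WT (0.04), with an interaction of 0.39 (adjusted p = 0.656). Me1, the cytosolic malic enzyme that supplies NADPH, rose by 0.21 in WT and 0.44 in iKO (interaction 0.23). The residual Acacb signal of the iKO mice went from 8.95 FPKM ± 0.464 (SD, n = 5) on chow to 10.6 ± 1.13 on HFD, a rise of 0.22 (adjusted p = 0.0278), against -0.03 in WT. Acaca, which encodes ACC1, the cytosolic isoform, fell by 0.29 in WT and 0.26 in iKO, calls lost under both alternative scalings, and its interaction was 0.03 (95% interval -0.22 to 0.27).

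Positive interactions also stood in related classes. Of 39 mitochondrial solute carriers, which move metabolites across the inner membrane, 5 were positive and none negative at an unadjusted p below 0.05, against 2.25% of all genes positive. One of them was Slc25a20, counted above among the oxidation genes. They also included the glutamate carrier Slc25a22 (0.59), which rose by 0.73 in iKO and had a value of 0.14 in WT that was not called, and Slc25a34 (0.38). The solute carrier median was 0.03, and 59% lay above 0, against 55.4% of all genes. Of 30 peroxisomal genes 4 were positive and none negative at the same threshold (13.3%). They included the fatty acid transporter Abcd3 (0.19), catalase Cat (0.19) and the bifunctional enzyme Hsd17b4 (0.19). The peroxisomal class as a whole was not shifted upward: its median was -0.0003, and 15 of 30 lay above 0 (50%). Acsf2, a mitochondrial acyl-CoA synthetase named after its values were seen, had an interaction of 0.51 (adjusted p = 0.245). Fah, the last enzyme of tyrosine breakdown, fell by 0.41 in WT and had a value of 0.11 in iKO (interaction 0.52, adjusted p = 0.203), although its fall in WT was not called under median-of-ratios scaling. Impa2, an inositol monophosphatase, rose by 0.46 in WT and 0.97 in iKO (0.50, adjusted p = 0.203).

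A different arrangement of the 4 groups was seen in some members of the ATF4 class, listed as genes of ATF4 and mitochondrial stress. ATF4 is the transcription factor of the integrated stress response, which raises amino acid synthesis, one-carbon metabolism and tRNA charging when translation or mitochondria are disturbed. The activity of ATF4 itself was not measured. In 4 genes of the class, Mthfd2, Atf5, Asns and Trib3, the genotypes overlapped on chow and all iKO mice on HFD stood above the rest. The class as a whole did not separate in that way: its score ran from -0.109 to -0.024 in WT and from -0.096 to 0.114 in iKO on chow, with RT4 highest, and from -0.130 to 0.005 in WT and from 0.007 to 0.173 in iKO on HFD. Of 43 tested members of the ATF4 class 6 had a positive and none a negative interaction at an unadjusted p below 0.05. The positive share was 14%, against 2.25% of all genes, and none was called. The median interaction was 0.11, and 35 members (81.4%, against 55.4% of all genes) lay above 0. With HFD 1 rose and 3 fell in WT, where 7.27% of all genes fell, while 7 rose and 2 fell in iKO, where 1.65% of all genes rose and 8.36% fell. On HFD 4 were called higher in iKO than in WT, against 0.102% of all genes. On chow none was higher and 1 was lower, against 0.344% and 0.72% of all genes. The falling members lost their calls under median-of-ratios scaling, which left 1 higher in WT and 9 higher in iKO.

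Mthfd2, the mitochondrial folate enzyme that feeds one-carbon units into purine synthesis, stood at 1.18, 0.75, 0.64, 0.61 and 0.99 FPKM in WT on chow and at 0.82, 1.6, 0.53, 0.75 and 0.68 FPKM in the chow-fed iKO mice. The HFD values were 1.66, 1.35, 1.81, 2.34 and 1.98 FPKM in WT and 5.72, 6.42, 7.21, 2.57 and 6.48 FPKM in iKO. All iKO mice on HFD lay above every other mouse, with RT17, at 2.57, closest to WT. Mthfd2 rose 1.54-fold in WT and 3.48-fold in iKO, as a ratio of (FPKM + 1). The interaction of 1.18 (SE 0.26, 95% interval 0.64 to 1.72) had an adjusted p of 0.232, and without RT17 it was called (adjusted p = 0.00164). The adjusted p lay between 0.00164 and 0.527 over the 32 alternative fits.

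Atf5, which encodes a transcription factor activated by misfolded mitochondrial proteins, stood at 15.89, 14.66, 13.88, 14.5 and 13.56 FPKM in WT and 16.66, 19.92, 15.14, 16.24 and 14.57 FPKM in iKO on chow. The HFD-fed mice had 16.61, 16.51, 16.23, 19.11 and 14.98 FPKM in WT and 24.97, 28.6, 31.28, 21.29 and 30.64 FPKM in iKO. As for Mthfd2, the iKO mice on HFD did not overlap any other group, and RT17 was the lowest of them. Atf5 rose in iKO by 0.69 and was not called in WT (0.19), with an interaction of 0.50 (SE 0.13, adjusted p = 0.399).

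Asns, asparagine synthetase, was low throughout: 0.79, 0.74, 0.58, 0.58 and 1.26 FPKM in WT on chow and 0.7, 1.21, 0.77, 1.16 and 0.65 FPKM in the chow-fed iKO mice. The HFD values were 0.93, 0.86, 0.71, 0.98 and 1.35 FPKM in WT and 1.71, 1.96, 2.49, 1.57 and 2.02 FPKM in iKO. The iKO mice on HFD again lay above all others, with a rise of 0.64 in iKO (adjusted p = 0.000793), 0.14 in WT, and an interaction of 0.50 (SE 0.16, adjusted p = 0.901). Trib3, a pseudokinase that restrains insulin signalling through AKT, ranged from 1.08 to 1.83 FPKM in the other 3 groups and stood at 2.46, 2.4, 3.01, 2.67 and 1.99 FPKM in iKO on HFD. Its interaction was 0.35 (SE 0.12, adjusted p = 0.989). The remaining 2 genes at an unadjusted p below 0.05 were the lipoprotein receptor Vldlr, also a PPAR-alpha target (0.31), and the mitochondrial chaperone Hspd1 (0.15). The count of 6 became 11 without the iKO chow library RT4, 12 without RT4 and RT7 together and 10 with library quality weights.

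**Figure D5:**
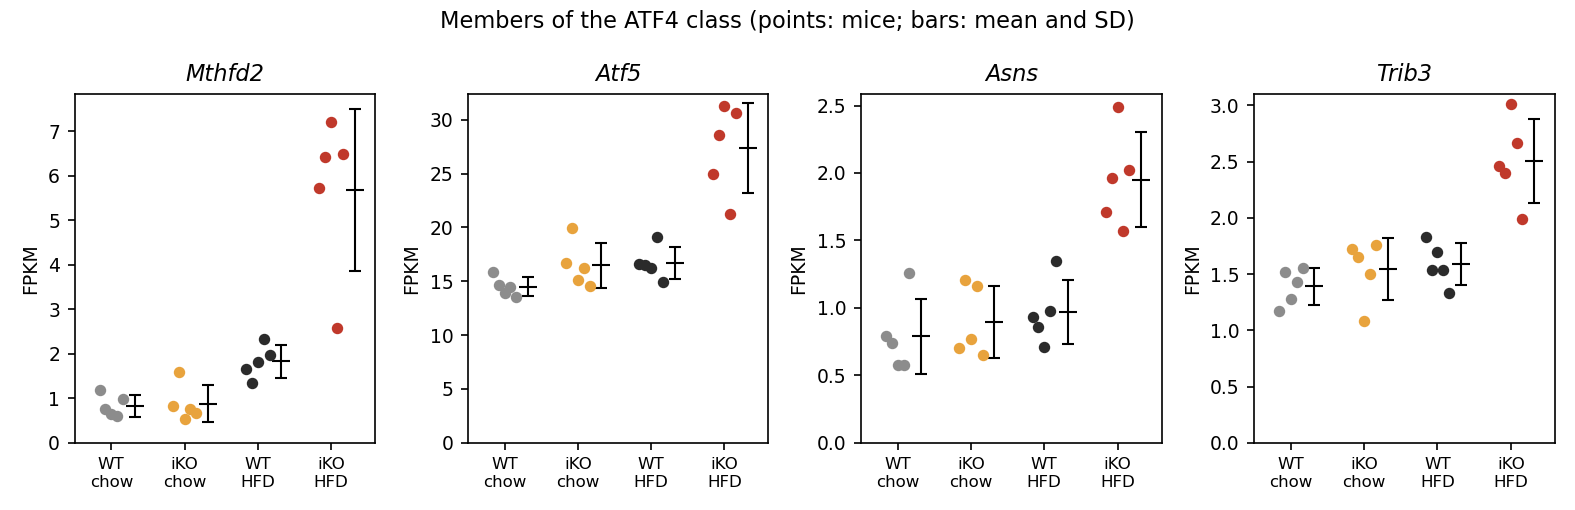
Levels in FPKM (vertical axes, from 0) of Mthfd2, Atf5, Asns and Trib3, 1 point per mouse, with the group mean and SD beside the points. The 5 iKO mice on HFD lie above every mouse of the other 3 groups for each gene, and the genotypes overlap on chow.

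Promoters of the ATF4 class were searched for the element that ATF4 binds together with C/EBP proteins, TGATGNAA on either strand, in RefSeq promoters on GRCm38.p6 that reach from upstream of each start to just after it. Of 32851 promoters of all genes 3.97% held a match, and of 41 promoters of the class, which belong to 35 of its 43 tested genes, 8 did (19.5%), each of a different gene. These were Asns, Trib3, Pycr1, Chac1, Vldlr, Aars, Atf3 and Nupr1. Members were listed as genes of ATF4 and mitochondrial stress, so a share above that of all promoters could follow from the listing. Asns, Trib3 and Vldlr also had a positive interaction at an unadjusted p below 0.05; the first 2 were chosen for printing after their values were seen, because all iKO mice on HFD stood on top. They are printed so that the element, in capitals, can be seen in its place, 5′ to 3′ on the strand of the gene.
Asns, chr6:7693205-7693252, minus strand: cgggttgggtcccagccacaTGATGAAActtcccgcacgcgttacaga
Trib3, chr2:152344019-152344066, minus strand: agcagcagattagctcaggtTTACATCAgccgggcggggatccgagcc
The element of Asns lies on the strand of the gene and that of Trib3 on the opposite strand. Pycr1 and Chac1, a proline synthesis enzyme and a glutathione-degrading enzyme, also hold a match, and their interactions were 0.16 (95% interval -0.06 to 0.37) and 0.06 (95% interval -0.48 to 0.60). No match lay in the windows of Mthfd2 and Atf5 or in the 4 promoters of the called genes.
Pycr1, chr11:120643824-120643871, minus strand: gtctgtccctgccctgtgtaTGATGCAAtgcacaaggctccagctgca
Chac1, chr2:119351029-119351076, plus strand: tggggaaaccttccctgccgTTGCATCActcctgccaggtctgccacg
A match describes these letters in this window and does not show that a factor binds there. The PPAR element, an exact direct repeat of AGGTCA with 1 base between the copies, was in 0.0396% of all promoters and in none of the 36 promoters of PPAR-alpha targets.

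The ER chaperones and unfolded protein response genes, which fold secreted and membrane proteins, had a median interaction of 0.10. Of 24 genes, 21 lay above 0 (87.5%, against 55.4% of all genes). At an unadjusted p below 0.05, 1 was positive (4.17%, against 2.25%). With HFD 10 of the 24 fell in WT (median -0.22), where 7.27% of all genes fell. In iKO 4 fell (median -0.10), where 8.36% of all genes did. Under median-of-ratios scaling 5 and 1 fell.

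Growth and turnover signalling held single members with positive interactions. Of 29 genes of insulin receptor signalling 4 were positive (13.8%, against 2.25% of all genes) and none negative at an unadjusted p below 0.05. They included Trib3, counted above in the ATF4 class. Mtor, the kinase that couples nutrients to growth, stood at 7.09 FPKM ± 0.29 (SD, n = 5) in WT and 7.91 ± 0.33 in iKO on HFD, with an interaction of 0.26 (adjusted p = 0.541). Irs2, an insulin receptor substrate, had an interaction of 0.26, and Tbc1d4, the AKT substrate that restrains glucose transporter traffic, 0.24. Of 41 mitophagy and autophagy genes 4 were positive (9.76%), among them the ATG8-family gene Gabarapl1 (0.31) and the adaptors Sqstm1 (0.22) and Optn (0.25). Sqstm1 and Optn fell in WT, by 0.29 and 0.33, and were not called in iKO; neither fall was called under the alternative scalings. Kdr, the endothelial VEGF receptor, had an interaction of 0.39 (adjusted p = 0.924). Above 0 lay 10 of 12 endothelial markers (83.3%, against 55.4% of all genes) and 9 of 10 smooth muscle and pericyte markers (90%).

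Negative interactions were fewer, and none was called. The lowest medians were those of the erythroid markers (-0.44, 5 of 5 tested below 0) and the MHC class II genes (-0.20, 6 of 6 below 0). The proliferation markers (-0.12, 5 of 5 tested below 0), the 2 tested neutrophil markers (-0.10) and collagens and matrix genes (-0.08) came next. None of these sets had a member at an unadjusted p below 0.05. In iKO on chow the MHC class II score had a median of 0.115, as in WT on chow, and reached 1.114 in RT7. In the same group the proliferation score had a median of 0.008 and reached 0.387 in RT7. The score of collagens and matrix had a median of 0.151 there and reached 0.908 in RT4. The ribosomal proteins of the cytosol, components of the translation machinery, held 7 of 81 tested genes with a negative and none with a positive interaction at an unadjusted p below 0.05 (8.64%, against 1.51% of all genes), with a median of -0.04. Rps20 stood at 76.0 FPKM ± 6.88 (SD, n = 5) in WT and 94.9 ± 5.90 in iKO on chow and at 80.1 ± 7.97 and 80.9 ± 7.65 on HFD (interaction -0.30, adjusted p = 0.989). Rpl5 stood at -0.25 and Rps27l at -0.17. On chow 7 members were called higher in iKO (against 0.344% of all genes), on HFD none, and under median-of-ratios scaling none on either diet. The count of 7 became 4 without the iKO HFD library RT11 and 4 without RT4 and RT7 together.

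The respiratory chain and ATP synthase subunits encoded in the nucleus had a median interaction of -0.04 over 80 genes. At an unadjusted p below 0.05, 3 were negative (3.75%, against 1.51% of all genes) and none positive. With HFD 4 of the 80 fell in WT, where 7.27% of all genes fell, and 20 in iKO, where 8.36% did. None fell in either genotype under median-of-ratios scaling. Sirt4, a mitochondrial sirtuin, fell in iKO by 0.37 and stood at 0.00 in WT (interaction -0.37, 95% interval -0.60 to -0.14, adjusted p = 0.679). The smallest p among negative interactions belonged to the long noncoding transcript Toporsos (-0.42, adjusted p = 0.278).

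Several other classes had similar medians in both genotypes. With HFD 7.27% of all genes fell in WT and 8.36% in iKO. Breakdown of branched-chain amino acids and propionate, which feeds carbon into the tricarboxylic acid cycle, fell in both genotypes: of 22 genes 14 fell in WT (median -0.21) and 16 in iKO (median -0.22), with no interaction at an unadjusted p below 0.05 and a range from -0.18 to 0.09. Under median-of-ratios scaling 1 and 5 fell, and the medians were -0.10 and -0.13. Abat, the GABA transaminase, had the largest fall, from 7.18 FPKM ± 1.12 (SD, n = 5) to 1.60 ± 0.311 in WT and from 5.67 ± 1.01 to 1.22 ± 0.270 in iKO, and its interaction was 0.06 (95% interval -0.27 to 0.40). Of 30 sarcomere and Z-disc genes, the contractile apparatus, 15 fell in WT and 14 in iKO (6 and 6 under median-of-ratios scaling), with a median interaction of 0.02 and none at an unadjusted p below 0.05. Oxct1, the enzyme that commits ketone bodies to oxidation, fell by 0.40 in WT and 0.43 in iKO (interaction -0.03, 95% interval -0.16 to 0.11). In the same sense mitochondrially encoded proteins, with 3 of 13 higher in WT and 5 in iKO, had a median interaction of 0.03. Across all genes 0.767% rose in WT and 1.65% in iKO.

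Natriuretic peptide genes, markers of wall stress, were lower on HFD. Nppb fell in WT from 191 FPKM ± 56.7 (SD, n = 5) to 58.0 ± 15.9 (adjusted p = 0.00389) and stood at 184 ± 92.5 and 98.7 ± 33 in iKO (not called, adjusted p = 0.109). Its interaction of 0.89 had a 95% interval of -0.04 to 1.82 and that of Nppa, 0.49, one of -0.92 to 1.90, so that a difference between genotypes was not detectable at this spread. Nppa is also an atrial marker. The summed atrial markers, of which 5 of 8 were tested, ranged from 73.99 to 723.49 FPKM in WT on chow and 115.66 to 389.70 in iKO on chow, and from 36.92 to 87.24 and 56.14 to 132.06 on HFD. Their part in the Nppa value was not tested.

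Markers of other cell types were summed in each library. The 12 fibroblast markers, all tested, summed to 701.31 to 840.63 FPKM in WT and 769.60 to 1616.61 in iKO on chow, and to 710.01 to 815.28 in WT and 703.13 to 1428.36 in iKO on HFD, with RT4 and RT13 highest. No fibroblast, collagen, interferon-stimulated or MHC class II gene had an interaction at an unadjusted p below 0.05. With the fibroblast score as a covariate 2 genes were called for the interaction, Fbp2 and Scd4. The 12 macrophage markers summed to 204.78 to 236.21 and 205.81 to 320.95 FPKM on chow and to 160.58 to 212.81 and 161.73 to 256.07 on HFD, in WT and iKO. The 1 lung epithelium marker in the files was at 0.02 FPKM or below. In whole ventricle, fewer cells of a type and less RNA per cell cannot be told apart.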

How the data were processed

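The authors deposited FPKM per gene, 1 table for each library. Bowtie2, RSEM, DESeq2 and the build mm9 are listed, unversioned, per the submitters' processing notes. Of the 25052 gene IDs 24938 are in GENCODE M21, and positions follow that annotation (GRCm38). The model, limma 3.58.1 in R 4.3.3 with trend and robust moderation, used log2(FPKM + 1), a scale that shrinks changes of low genes, and 4 group means over the 20 libraries (16 residual degrees of freedom). The calculation was tested on simulated data. P-values measure the spread between the mice sampled. Depth is approximate: it comes from what 1 read adds to the FPKM of short genes. Python 3.11.15, numpy 2.4.6, pandas 2.3.3 and matplotlib 3.10.9 were used.

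The 44 gene classes, 15 marker lists and the naming rule were chosen with earlier results of these data known. Named were genes called for the interaction, the 10 smallest p in each direction, up to 3 members per class by interaction or by diet, and a fixed set (Acacb, Acaca, Mlycd, Cpt1b, Pdk4, Ucp3, Angptl4, Esr1, Mthfd2, Atf5, Asns, Trib3, Nppa, Nppb, Tfrc); some named genes are not reported here. The other oxidation genes, Acsf2, Scd1, Scd2, Lpl, Ucp2, Vldlr, Pycr1, Chac1 and Myl7 were added after their values were seen. Classes are described by counts and medians, with no test. In all, 32 alternative fits were run, 20 of them leaving out 1 library.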

Additional observations from a re-analysis of the deposited data

Results flagged for a closer look

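The response to diet differed between WT and iKO by the test of the interaction for 4 genes: Fbp2 (0.55 on the log2 scale), Scd4 (0.99), Scn4b (0.86) and Vwa8 (0.43).

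Single libraries stood apart from the other 4 of their group, by Dixon's test at the 95% level, in 10 of 184 groups examined, and chance alone flags about 1 in 20. Among genes named for their interaction these were Acaca in iKO chow library RT6 (1.98 FPKM), Fbp2 in iKO HFD library RT20 (22.54), Hadhb in iKO chow library RT4 (997.90), Mthfd2 in iKO chow library RT4 (1.60), Scn4a in WT HFD library RT19 (5.78), Sirt4 in WT chow library RT10 (6.33) and in iKO HFD library RT13 (3.6), and Ucp3 in WT chow library RT3 (25.97). Among class scores they were fatty acid oxidation in WT HFD library RT14 (0.045) and cytosolic ribosomal proteins in iKO HFD library RT11 (-0.078).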

How the results depend on the processing

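The 4 interaction calls stayed 4 with a pseudocount of 0.1 or 0.5, the stricter filter and quality weights. They became 0 with no filter, under median-of-ratios and upper-quartile scaling, without trend and robust moderation, without RT1 and RT4 and without RT4 and RT7, and 2 with the fibroblast score or the first residual component as covariate, the latter added after the data were seen. Leaving out 1 library gave 0 to 5, with 0 without RT1, RT3, RT4, RT5, RT8, RT13, RT15, RT16, RT18, RT19 or RT20. The cause was not tested. For "diet in WT, genes called" the count of 1027 became 622 with no filter, 327 under median-of-ratios and 353 under upper-quartile scaling, 2092 with quality weights, and 623 (without RT3) to 1182 (without RT4) leaving out 1 library. For "diet in iKO, genes called" the count of 1279 became 830 with no filter, 560 and 594 under the 2 scalings, 839 without RT1 and RT4, 509 without RT4 and RT7, and 872 to 1475 leaving out 1 library. Leaving out 1 library gave 22 to 28 positive PPAR-alpha targets, 14 to 16 oxidation genes, 6 to 11 uptake genes, 5 to 11 ATF4 genes (10 with quality weights, 12 without RT4 and RT7) and 4 to 9 negative ribosomal proteins (4 without RT4 and RT7). Acaca reversed without RT3, RT6 or RT19, with the Acaca interaction from -0.0360 to 0.0847. No paired analysis was possible because the replicate numbers are unique to each library.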
